A study of Sus scrofa with 8 samples.

Results

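The tripartite motif (TRIM) genes of the pig retina were examined in single-nucleus RNA sequencing data. Every listed gene symbol made of TRIM and a number was taken, apart from 1 left out by the selection rule, which gave 53 members of the 35683 features in the files. Retinas came from female Yucatan minipigs a few months old, and 8 retinas of 6 animals were sequenced. At week 2 both eyes of 1 animal given the vector AAV2.7m8/CAG-GFP and both eyes of 1 animal given vehicle were used. At week 4 the left eyes of 2 AAV and 2 vehicle animals were used. The study's later sacrifices fell on more than 1 day, and the labels do not tie these animals to a day, so week 4 may join different days. The vector, an adeno-associated virus with an engineered capsid that carries a green fluorescent protein gene under the broadly active CAG promoter, was injected into the vitreous of both eyes at 5e11 vector genomes per eye. All animals, controls included, had received the hyaluronidase Vitrase in both eyes and weekly methylprednisolone, a glucocorticoid, so every value below was measured under an anti-inflammatory steroid. The labels give each of the 4 groups its own batch, so batch and group cannot be told apart.

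Most TRIM proteins have a RING finger that works as a ubiquitin ligase, 1 or more B-boxes and a coiled coil, and they differ in the part that follows. Some, TRIM14 among them, lack the RING finger. In many members that part is a PRYSPRY domain, which binds proteins such as viral capsids or antibodies. A subset is switched on by interferon, the secreted antiviral signal, while others serve in axon guidance, muscle structure, chromatin or membrane traffic. TRIM21 is a cytosolic receptor for antibody-coated virus, TRIM14 and TRIM56 act in antiviral signalling, TRIM38 restrains inflammatory signalling, and TRIM26 lies in the major histocompatibility region.

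Nuclei were assigned to classes by lists of marker genes, and unique molecular identifiers (UMIs) were summed per retina and class. Of 388491 barcodes, 268200 were assigned to a class. Each retina held 121544835 to 173614051 UMIs in all, and between 1.15% and 1.56% of barcodes were shared between any pair of retinas. Rod-, cone- and bipolar-gated nuclei were numerous in every retina, whereas astrocyte-gated nuclei numbered 93 to 346 per retina and ganglion-gated nuclei 133 to 240. Microglia-gated nuclei numbered 1076 and 712 in the week 4 AAV retinas and 57 to 105 in the other 6, and lymphocyte-gated nuclei 1078 and 977 against at most 11, so lymphocytes were not tested. The Müller-gated nuclei carried their own markers at 4280 CPM, the UMIs of a gene scaled to a library of 1000000 UMIs, against a median of 198 CPM in the other classes, but no Müller marker was among their 10 leading genes by fold. The endothelial gene FLT1 was among them at 536 CPM, while the endothelial genes CDH5 and VWF were at 0.215 and 1.33 CPM, so the class is named here by its gate only. The same holds for the microglia-gated nuclei, whose 10 leading genes by fold held 1 of their markers (ITGAM) and the macrophage genes CD163, VSIG4, MS4A7 and F13A1. They carried P2RY12, a gene of resident microglia, at 806 CPM and the macrophage gene MRC1 at 312 CPM, so microglia and other macrophages cannot be told apart in this class.

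Sequences before the annotated start of TRIM genes were read from the RefSeq annotation of Sscrofa11.1, the build of the files, for the 50 members found there by symbol. The 250 bases before the start of TRIM21 and of TRIM26 are shown because these genes rose in many classes (see the values that follow). TRIM21 lies at chr9:5782133-5790628 on the plus strand and TRIM26 at chr7:22757794-22767662 on the minus strand, and the printed stretches are chr9:5781883-5782132 and chr7:22767663-22767912, 5′ to 3′ along each gene, with any match to the interferon-stimulated response element in capitals.
TRIM21: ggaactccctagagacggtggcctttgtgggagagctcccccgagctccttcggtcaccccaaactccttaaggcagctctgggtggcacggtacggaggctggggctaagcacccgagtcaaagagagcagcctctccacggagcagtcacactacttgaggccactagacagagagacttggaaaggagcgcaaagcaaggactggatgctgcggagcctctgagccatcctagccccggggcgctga
TRIM26: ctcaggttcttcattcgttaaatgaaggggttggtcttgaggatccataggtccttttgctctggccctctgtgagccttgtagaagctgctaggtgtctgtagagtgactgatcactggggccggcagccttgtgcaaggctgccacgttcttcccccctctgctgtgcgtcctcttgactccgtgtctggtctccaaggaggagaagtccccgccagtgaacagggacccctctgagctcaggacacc
Neither stretch has capitals. The core of the interferon-stimulated response element was searched on both strands, from 250 bases before to 50 bases after the start. It was found in 0 of 50 members and in 3.72% of 20664 protein-coding genes. TRIM6, TRIM34 and TRIM77 were not among the 50 and were not searched, and TRIM6 and TRIM34 are on the interferon list used below. The gamma-activated sequence TTCNNNGAA, which reads the same on both strands, was found in 3 members (TRIM10, TRIM11 and TRIM46), or 6.0%, and in 7.36% of all genes. An absent match says only that these letters are not in this window.

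At week 4, members were compared between AAV and vehicle retinas in each class with edgeR, a count model fitted to all genes of the class. Of the 53 members, 43 had enough UMIs to be tested in at least 1 of 9 classes and 10 were tested in none. Over the 307 pairs of a member and a class that were tested, 45 were higher and 6 lower in AAV retinas, or 14.7% and 1.95%, against 4.3% and 3.61% of all gene and class pairs. Without the second vehicle animal the rises numbered 29 and the falls 3, and without the second AAV animal the falls numbered 2. Classes of 1 retina share that retina, so these pairs are not independent. Of the members, 13 were higher in at least 1 class, 4 were lower in at least 1, TRIM9 was in both sets, and 27 of the tested members passed in no class. With 2 against 2 retinas an exact permutation test of a single value cannot give a p below 0.333, so the adjusted p-values rest on the spread shared across genes.

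The rise was concentrated in a few members. A list of 10 TRIM genes known to respond to interferon was used, chosen with earlier results of these data known. Of these genes, 8 are in the files by symbol and 6 could be tested. These 6, TRIM14, TRIM21, TRIM26, TRIM34, TRIM38 and TRIM56, gave 37 of the 45 rises over 48 tested pairs and no fall. Some of these pairs, among them TRIM34 in cone- and TRIM21 in horizontal-gated nuclei, had almost no vehicle UMIs. They had enough UMIs to be tested only through the AAV retinas, so a rise was the only call open to them. The 45 members outside the list gave 8 rises and 6 falls over 259 pairs. Both shares were below the 4.3% and 3.61% of all gene and class pairs. In rod-gated nuclei all 6 rose, as they did in bipolar-, amacrine- and Müller-gated nuclei. The list's median log2 fold change was 2.37, 2.30, 2.66 and 2.86 in these classes, where the median of all genes was 0.02, 0.00, 0.00 and 0.00. In cone-gated nuclei 3 of 6 rose (TRIM21, TRIM34 and TRIM56), in horizontal-gated nuclei 3 of 3, in ganglion-gated nuclei 1 of 3 (TRIM21), in astrocyte-gated nuclei 5 of 6 and in microglia-gated nuclei 1 of 6 (TRIM14). Of these calls, TRIM56 in cone- and TRIM14 in horizontal-gated nuclei were each lost under 5 of 12 alternative settings, and TRIM34 in cone-gated nuclei under 2. The remaining measured list members, TRIM6 and TRIM69, had 33 and 166 UMIs over all gated nuclei of the 8 retinas and had too few at week 4 to be tested in this comparison.

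The number of members called higher, whatever the list, was 10 of 40 in rod-gated nuclei (background 5.67%), 3 of 38 in cone- (1.16%), 6 of 39 in bipolar- (2.07%), 6 of 41 in amacrine- (2.22%), 5 of 25 in horizontal- (3.61%), 1 of 33 in ganglion- (2.22%), 8 of 36 in Müller- (11.6%), 5 of 27 in astrocyte- (7.02%) and 1 of 28 in microglia-gated nuclei (3.81%). Microglia-gated and ganglion-gated nuclei had shares near their background. The week 4 vehicle libraries of microglia-gated nuclei held 101584 and 98642 UMIs, the smallest of those tested, and 23 of 33 interferon reference genes outside the family were called higher there.

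**Figure D1:**
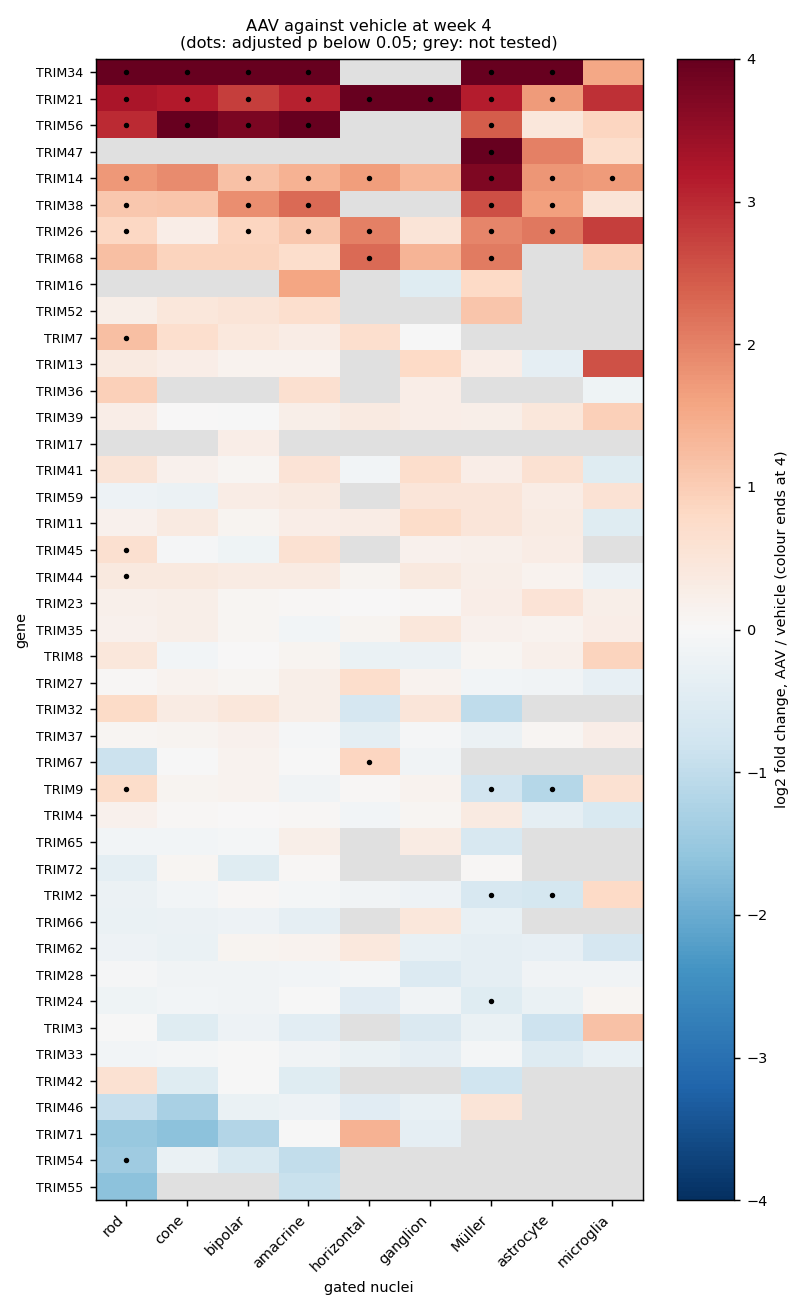
Log2 fold change of AAV over vehicle at week 4 for the 43 tested TRIM genes (rows, ordered by mean) in 9 gated classes (columns), with colour ending at 4 in either direction. Dots mark the 51 pairs called and grey cells were not tested, and the 6 interferon-list genes TRIM34, TRIM21, TRIM56, TRIM14, TRIM38 and TRIM26 fill most of the top rows.

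TRIM21 rose in 8 of 9 classes, the most of any member. Its call was lost under 1 of the 12 alternative settings in rod-gated nuclei and under none in the other called classes. In rod-gated nuclei its level was 26.1 and 34.5 CPM in the AAV retinas and 5.27 and 1.02 CPM in the vehicle retinas, a log2 fold change of 3.27 ± 0.59 (SE, adjusted p = 0.0235, edgeR). In amacrine-gated nuclei it was 28.7 and 37.2 CPM against 4.35 and 3.56 CPM (log2 fold change 3.06 ± 0.20, adjusted p = 1.96e-05, edgeR). In Müller-gated nuclei it was 56.9 and 61.1 CPM against 5.53 and 7.33 CPM (3.15 ± 0.20, adjusted p = 6.3e-05, edgeR). The groups did not overlap in these classes, and as a ratio the vehicle retinas of rods lay further apart than the AAV retinas did. In horizontal-gated nuclei, 75 and 85 UMIs were counted in the AAV retinas and 0 and 1 in the vehicle retinas. The ratio of the summed levels was 136 with an exact 95% counting interval of 24.0 to 5391, which shows how little a single vehicle UMI fixes the size of the rise. In ganglion-gated nuclei the levels were 17.8 and 20.2 CPM against 0.387 and 1.59 CPM (4.19 ± 0.46, adjusted p = 0.000174, edgeR). At these vehicle levels TRIM21 could enter the ganglion test only through the AAV retinas, so a rise was the only call open to it there. Astrocyte-gated nuclei had the smallest of the called rises, 28.7 and 41.0 CPM against 12.3 and 9.54 CPM (1.71 ± 0.34, adjusted p = 0.0139, edgeR). In microglia-gated nuclei, 89 and 98 UMIs stood against 1 and 0, in libraries of 3088856 and 2411538 against 101584 and 98642 UMIs. The counts therefore overstate the difference in level, which did not pass (adjusted p = 0.166, edgeR).

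TRIM34, a PRYSPRY member related to the retroviral restriction factor TRIM5, was nearly silent in the week 4 vehicle retinas outside microglia-gated nuclei. In Müller-gated nuclei 284 and 261 UMIs were counted in the AAV retinas and 3 and 0 in the vehicle retinas, a ratio of 282 with an exact counting interval of 96.0 to 1372. In rod-gated nuclei the counts were 226 and 457 against 2 and 0 (ratio 125, interval 34.5 to 1035), and in amacrine-gated nuclei 35 and 86 against 1 and 0 (ratio 119, interval 20.9 to 4725). Astrocyte-gated nuclei held 38 and 63 UMIs against 0 and 0, so TRIM34 was at least 18.1-fold higher, computed against a floor of 3 UMIs over both vehicle retinas. Cone-gated nuclei held 18 and 29 against 0 and 0, at least 14.9-fold higher. These 5 classes and bipolar-gated nuclei passed the test (adjusted p = 0.000301 to 0.0377, edgeR). With so few vehicle UMIs, the 5 classes could enter the test only through the AAV retinas, so a rise was the only call open to them. The call in bipolar-gated nuclei was lost under 1 of the 12 alternative settings. Horizontal- and ganglion-gated nuclei had 0 vehicle UMIs too but too few AAV UMIs to be tested. In microglia-gated nuclei TRIM34 was at 47.9 and 83.4 CPM in AAV retinas and 9.84 and 40.6 CPM in vehicle retinas, and the difference did not pass (adjusted p = 0.28, edgeR). Since TRIM34 belongs to a family of close copies, reads could have been split between it and its relatives by the counting, which was not tested.

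TRIM14 rose in 7 classes and TRIM26 in 6. Beside the horizontal-gated nuclei, the TRIM14 calls were lost under 2 of the 12 alternatives each in rod-, bipolar- and astrocyte- and under 1 in microglia-gated nuclei, and the TRIM26 calls under 2 each in rod- and bipolar-gated nuclei. TRIM14, which helps to activate antiviral signalling at mitochondria, was at 15.4 and 23.8 CPM in the Müller-gated nuclei of AAV retinas and at 1.19 and 1.56 CPM in those of vehicle retinas (log2 fold change 3.74 ± 0.34, adjusted p = 0.000378, edgeR). In bipolar-gated nuclei, where TRIM14 was already present in vehicle retinas at 5.22 and 5.13 CPM, it was counted 229 and 239 times in AAV retinas against 97 and 88 times in vehicle libraries of similar size (1.18 ± 0.17, adjusted p = 0.0154, edgeR). In microglia-gated nuclei it was at 210 and 251 CPM against 68.9 and 91.2 CPM (1.69 ± 0.30, adjusted p = 0.0217, edgeR), the only member called there. In cone- and ganglion-gated nuclei the change in TRIM14 was 1.9 and 1.34 on the log2 scale and did not pass (adjusted p = 0.051 and 0.0904, edgeR). The AAV and vehicle retinas were apart in all 9 classes for this gene. The classes come from the same retinas, and the share of all genes apart in every class was not computed, so this adds no support to the classes that did not pass.

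TRIM26 was readily detected in vehicle retinas, so its changes rest on larger counts. It rose most in log2 terms among the called classes in astrocyte-gated nuclei, with 95 and 67 UMIs in AAV and 7 and 14 UMIs in vehicle retinas, a mean of 41.5 against 9.48 CPM (2.12 ± 0.32, adjusted p = 0.00401, edgeR). In horizontal-gated nuclei it went from 17.4 and 15.4 CPM to 63.3 and 77.6 CPM (2.01 ± 0.24, adjusted p = 0.00102, edgeR). In rod-gated nuclei the rise was smaller, from 28.5 and 25.3 CPM to 41.9 and 47.5 CPM (0.83 ± 0.14, adjusted p = 0.0223, edgeR). It also rose in Müller- (1.96 ± 0.18, adjusted p = 0.000378, edgeR), amacrine- (1.07 ± 0.14, adjusted p = 0.00273, edgeR) and bipolar-gated nuclei (0.87 ± 0.14, adjusted p = 0.0182, edgeR). TRIM26 did not pass in cone-, ganglion- and microglia-gated nuclei. In cone-gated nuclei it was at 30.0 and 34.6 CPM in AAV retinas and at 30.4 and 25.6 CPM in vehicle retinas, so the groups overlapped (0.26 ± 0.16, adjusted p = 0.462, edgeR). In ganglion-gated nuclei it was at 28.1 and 23.9 CPM against 17.4 and 20.0 CPM (0.53 ± 0.22, adjusted p = 0.264, edgeR). In microglia-gated nuclei 352 and 316 UMIs stood against 4 and 0 in far smaller vehicle libraries (2.77 ± 0.67, adjusted p = 0.0578, edgeR). This difference rests on few vehicle UMIs.

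TRIM38 and TRIM56 each rose in 5 classes, and several of these calls depended on the setting. Of the 12 alternatives, the TRIM38 call was lost under 5 in amacrine-, 4 each in rod- and astrocyte- and 3 in bipolar-gated nuclei, and under none in Müller-gated nuclei. The TRIM56 call was lost under 5 in cone- and 2 in bipolar-gated nuclei, and under none in the other 3 classes. TRIM38 rose most in Müller-gated nuclei, at 21.2 and 27.8 CPM against 5.43 and 2.40 CPM (log2 fold change 2.57 ± 0.34, adjusted p = 0.00209, edgeR). It was high in microglia-gated nuclei of both groups, at 123 and 93.3 CPM in AAV and 78.8 and 91.2 CPM in vehicle retinas, with no call (0.52 ± 0.34, adjusted p = 0.435, edgeR). TRIM56 was at 16.8 and 17.3 CPM against 3.15 and 3.00 CPM in Müller-gated nuclei (2.42 ± 0.23, adjusted p = 0.000406, edgeR). In amacrine-gated nuclei it was counted 25 and 27 times in AAV and 2 and 1 times in vehicle retinas, a ratio of 17.0 with an exact counting interval of 5.50 to 85.1. With so few vehicle UMIs, TRIM56 could enter the amacrine test only through the AAV retinas, so a rise was the only call open to it there. In astrocyte-gated nuclei TRIM56 was at 10.2 and 10.9 CPM against 5.59 and 9.54 CPM and did not pass (0.47 ± 0.43, adjusted p = 0.531, edgeR).

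**Figure D2:**
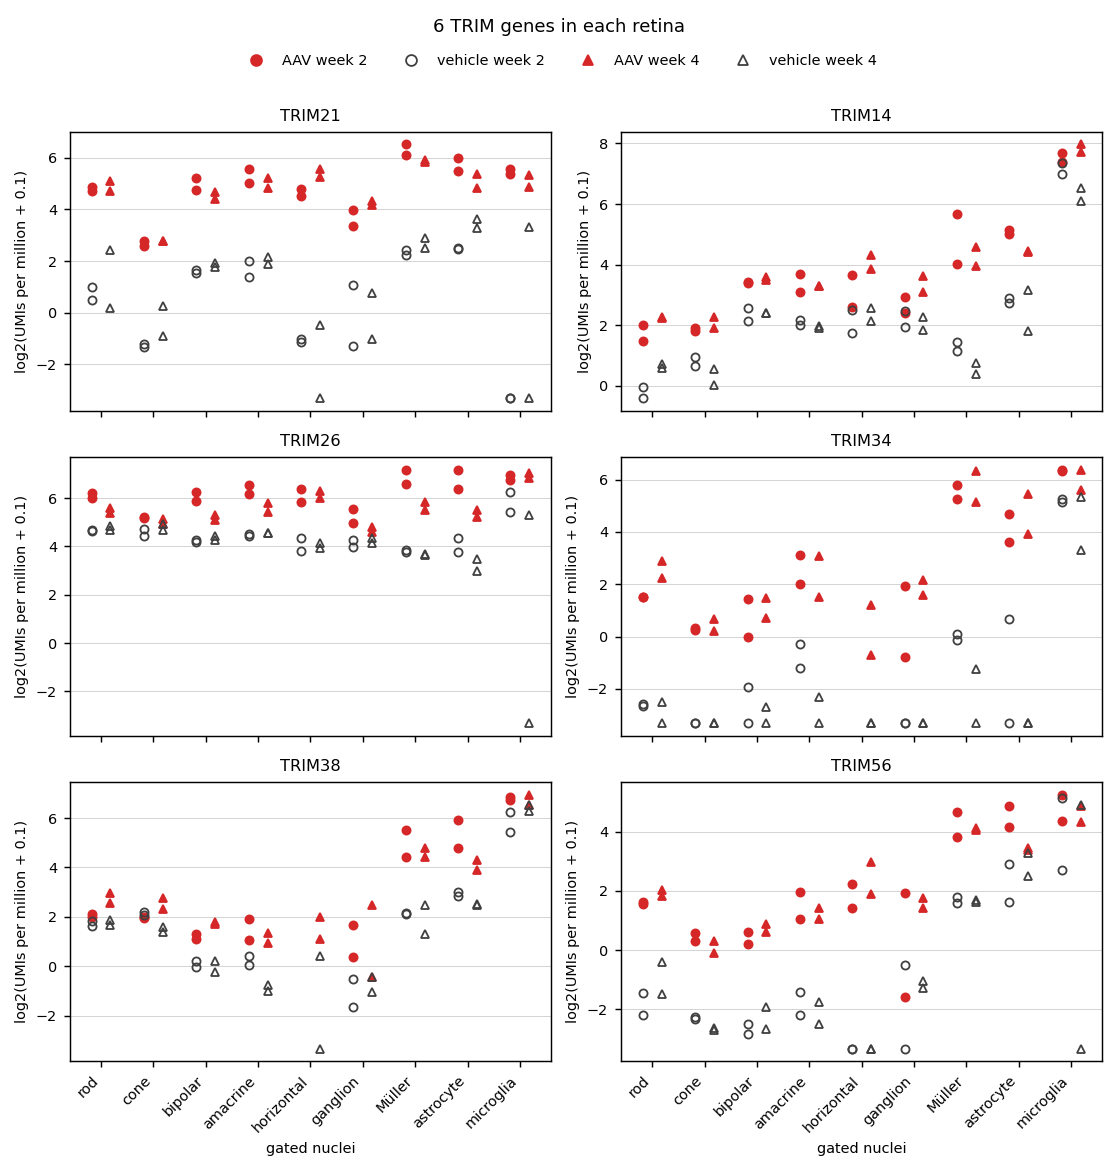
Level of 6 TRIM genes in each of the 8 retinas, as log2 of CPM plus 0.1, by gated class. Filled red symbols are AAV and open symbols vehicle retinas, circles week 2 and triangles week 4, and points at log2 of 0.1 are retinas with 0 UMIs, as for TRIM34 in cone-gated nuclei of vehicle retinas.

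Outside the interferon list, 7 members were called higher, in 8 of 259 pairs, a share below the 4.3% of all gene and class pairs. TRIM68, a PRYSPRY ligase whose gene at chr9:5502931-5516936 lies near TRIM21, rose in Müller-gated nuclei from 5.32 and 3.85 CPM to 20.7 and 19.4 CPM (log2 fold change 2.09 ± 0.23, adjusted p = 0.000797, edgeR). It also passed in horizontal-gated nuclei on 16 and 15 UMIs against 3 and 2 (adjusted p = 0.0439, edgeR), a call that was lost under 9 of 12 alternative settings. This pair, too, could enter the test only through the AAV retinas, so a rise was the only call open to it. The fitted change of TRIM68 was above 0 in all 8 classes tested. TRIM47, another PRYSPRY ligase, was counted 32 and 7 times in Müller-gated nuclei of AAV retinas and 0 and 2 times in vehicle retinas (ratio 30.3, exact counting interval 7.84 to 259, adjusted p = 0.00607, edgeR). With so few vehicle UMIs, TRIM47 could enter this test only through the AAV retinas, so a rise was the only call open to it. In rod-gated nuclei TRIM7, known for binding viral and glycogen-related proteins, was at 14.5 and 13.9 CPM against 6.36 and 6.85 CPM (1.20 ± 0.16, adjusted p = 0.0125, edgeR). The Müller calls of TRIM68 and TRIM47 and this call of TRIM7 were each lost under 1 of the 12 alternatives. TRIM44 and TRIM45 changed by 0.39 and 0.63 on the log2 scale in rods (adjusted p = 0.0475 and 0.048, edgeR), just inside the threshold, and both calls were lost without any 1 of the 4 retinas. TRIM45 is named here after its value was seen. TRIM67, a neural member with a fibronectin type III domain, was at 64.8 and 72.6 CPM against 35.5 and 36.3 CPM in horizontal-gated nuclei (0.85 ± 0.20, adjusted p = 0.0351, edgeR), a call lost under 5 of the 12 alternatives, among them without either vehicle animal.

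TRIM9, a brain-enriched ligase that acts in axon branching, moved in both directions. In astrocyte-gated nuclei it was at 490 and 427 CPM in AAV retinas and at 1120 and 963 CPM in vehicle retinas (log2 fold change -1.14 ± 0.15, adjusted p = 0.00236, edgeR). In Müller-gated nuclei it was at 28.8 and 28.1 CPM against 43.3 and 50.1 CPM (-0.75 ± 0.15, adjusted p = 0.0121, edgeR). In rod-gated nuclei it was at 213 and 281 CPM against 151 and 164 CPM (0.74 ± 0.16, adjusted p = 0.0379, edgeR). The groups did not overlap in any of these classes. TRIM2, an NHL-repeat ligase of neurons, was lower in the same glial gates, at 226 and 189 CPM against 331 and 303 CPM in Müller- (-0.65 ± 0.13, adjusted p = 0.00987, edgeR) and at 262 and 218 CPM against 449 and 355 CPM in astrocyte-gated nuclei (-0.69 ± 0.18, adjusted p = 0.0345, edgeR). TRIM24, a chromatin reader, was lower in Müller-gated nuclei at 106 and 110 CPM against 139 and 156 CPM (-0.49 ± 0.13, adjusted p = 0.0291, edgeR). TRIM54, a muscle-type member, was lower in rod-gated nuclei on 29 and 30 UMIs against 38 and 24 UMIs in smaller libraries (-1.42 ± 0.33, adjusted p = 0.0448, edgeR). In vehicle retinas TRIM54 was 4.83 ± 0.18 higher on the log2 scale in bipolar-gated nuclei than in the other classes. Bipolar-gated nuclei were 10.76% and 11.45% of filtered nuclei in AAV and 14.67% and 15.89% in vehicle retinas at week 4. The part of bipolar RNA in this fall was not tested. Members called lower numbered 3 of 36 in Müller-, 2 of 27 in astrocyte- and 1 of 40 in rod-gated nuclei. These shares were near or below the background. The background share of genes called lower was 11.7% in Müller-, 6.45% in astrocyte- and 6.08% in rod-gated nuclei. It was 0.578% in cone-, 1.15% in bipolar-, 0.984% in amacrine-, 2.19% in horizontal-, 0.822% in ganglion- and 2.51% in microglia-gated nuclei, where no member was called lower. Other values differed between the same retinas. Müller-gated nuclei of AAV retinas were deeper, with median UMIs of 5396 and 5501 against 2216 and 2067, and fewer, with 1474 and 587 nuclei against 3717 and 3519. Their summed level of 11 rod markers was 304 and 300.5 CPM against 821 and 784 CPM. Astrocyte-gated nuclei of AAV retinas were deeper as well, with median UMIs of 10050 and 10490 against 4692 and 4710, while their numbers overlapped (250 and 133 against 191 and 258), as did their rod marker sums (942 and 454 CPM against 939 and 1115 CPM). Rod-gated nuclei of AAV retinas were deeper, with median UMIs of 1938 and 2193 against 1484 and 1520, and more numerous, with 22148 and 25173 nuclei against 14687 and 8786. The part of depth, number and rod RNA in these results was not tested. All 6 falls were absent from the fit over 6 animals with week as an added term. Of the 12 alternative settings, the fall of TRIM54 in rods was lost under 7, that of TRIM2 under 5 in astrocyte- and 2 in Müller-gated nuclei, that of TRIM24 under 4, and that of TRIM9 under 3 in Müller- and 1 in astrocyte-gated nuclei. The rise of TRIM9 in rods was lost under 3.

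The 27 tested members called in no class include several that were measured in all 9. TRIM28, a co-repressor of zinc-finger proteins also known as KAP1, had log2 fold changes of -0.55 to -0.05, and TRIM33, a chromatin reader, of -0.51 to -0.01. TRIM23, which also carries a GTPase domain, had 0.02 to 0.55, and TRIM35 -0.11 to 0.46. The sign was thus the same in all 9 classes for TRIM28, TRIM33 and TRIM23, without a call. These classes share the same retinas, and some of the values were close to no change. TRIM8, which acts in cytokine signalling, ranged from -0.25 to 0.89, and TRIM37, a peroxisome ligase, from -0.40 to 0.25. The 10 members tested in no class at week 4, TRIM6, TRIM10, TRIM15, TRIM29, TRIM40, TRIM50, TRIM58, TRIM63, TRIM69 and TRIM77, had 27 to 178 UMIs each over all gated nuclei, and a change in them at week 4 was not detectable at this depth.

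By the part after the coiled coil, 25 members in the files were grouped as having a PRYSPRY domain only. They gave 36 of the rises over 136 pairs and no fall, and 8 of them were called. Of these rises, 32 came from the interferon list (TRIM14, TRIM21, TRIM26, TRIM34 and TRIM38). The 18 members of this PRYSPRY-only group outside the list gave 4 rises over 95 pairs, or 4.21%, near the 4.3% of all gene and class pairs. Members with NHL repeats (TRIM2, TRIM3, TRIM32 and TRIM71) gave 0 rises and 2 falls over 30 pairs, both falls from TRIM2, or 6.67% against 3.61% of all gene and class pairs. The PHD and bromodomain members (TRIM24, TRIM28, TRIM33 and TRIM66), which act on chromatin, gave 0 rises and 1 fall over 33 pairs, or 3.03%, near that background. The members grouped here by a fibronectin type III domain (TRIM9, TRIM36, TRIM46 and TRIM67) gave 2 rises and 2 falls over 26 pairs, or 7.69% each way. The list of this group was fixed beforehand and need not hold every member with such a domain. The rises were TRIM9 in rods and TRIM67 in horizontal-gated nuclei, and both falls were TRIM9. The muscle-type members (TRIM54, TRIM55 and TRIM63) gave 1 fall, that of TRIM54, over 6 pairs. The members anchored in membranes, TRIM13 and TRIM59, gave no call over 16 pairs. The 10 members placed in none of these groups gave 7 rises over 60 pairs, of which 5 were TRIM56, and outside the interferon list these were 2 of 53 pairs, or 3.77% (TRIM44 and TRIM45). Among TRIM-type proteins with other symbols, PML, the organiser of nuclear bodies, was higher in all 9 classes, from 1.30 ± 0.15 in cone- to 3.48 ± 0.23 in horizontal-gated nuclei on the log2 scale (adjusted p = 0.0140 at most, edgeR). MID1 was lower in horizontal-gated nuclei (-2.00 ± 0.30), and MID2 was called in none. For scale, 33 interferon reference genes outside the family gave 273 rises over 290 pairs and no fall.

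At week 2, with 1 animal in each arm, both eyes are not replicates and no test between conditions was possible, so counts and their intervals are given, which cover counting error only. Over 324 pairs, 55 were more than 2-fold higher and 7 more than 2-fold lower in the AAV animal, against 4.91% and 2.99% of all gene and class pairs. The members over 2-fold higher numbered 6 of 44 in rod- (background 6.04%), 5 of 40 in cone- (3.7%), 7 of 39 in bipolar- (2.84%), 8 of 42 in amacrine- (3.08%), 5 of 30 in horizontal- (4.09%), 5 of 36 in ganglion- (3.14%), 7 of 40 in Müller- (6.97%), 7 of 31 in astrocyte- (5.3%) and 5 of 22 in microglia-gated nuclei (13.3%). Of the 7 over 2-fold lower, 4 were in microglia-gated nuclei (background 12.7%) and 1 each in rod- (2.79%), cone- (2.13%) and astrocyte-gated nuclei (4.25%). None was lower in bipolar- (2.32%), amacrine- (1.03%), horizontal- (1.76%), ganglion- (1.31%) or Müller-gated nuclei (3.87%). The microglia libraries of week 2 were the smallest, so a 2-fold difference there often rests on a few UMIs. TRIM21 in rod-gated nuclei was at 25.9 and 29.1 CPM in the left and right AAV eyes and at 1.32 and 1.88 CPM in the vehicle eyes, a ratio of 17.5 with an exact interval of 14.3 to 21.7. In Müller-gated nuclei it was at 69.2 and 91.8 CPM against 4.59 and 5.35 CPM (ratio 17.0, interval 14.1 to 20.5). In horizontal-gated nuclei 55 and 106 UMIs of TRIM21 stood against 1 and 1, a ratio of 69.2 with an interval of 18.9 to 577. In microglia-gated nuclei 12 and 10 UMIs stood against 0 and 0, at least 4.38-fold higher against the floor of 3 UMIs over both eyes. The level was high in both eyes of the AAV animal in each of these classes. The ratio was lower, though far above 1, in bipolar- (11.2, interval 9.46 to 13.3), ganglion- (9.91, interval 5.16 to 21.3) and astrocyte-gated nuclei (9.21, interval 5.63 to 15.8).

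Müller-gated nuclei held some of the largest week 2 ratios. TRIM34 was at 38.3 and 55.4 CPM there on 342 and 893 UMIs against 11 and 11 UMIs (ratio 56.3, interval 37.0 to 90.2), and TRIM14 at 16.0 and 51.2 CPM against 2.62 and 2.10 CPM (ratio 16.2, interval 12.5 to 21.4). TRIM26 was at 96.5 and 145 CPM against 14.3 and 13.5 CPM (ratio 9.17, interval 8.21 to 10.3), and TRIM38 at 21.3 and 45.5 CPM against 4.38 and 4.21 CPM (ratio 8.58, interval 7.02 to 10.6). The right AAV eye was above the left for all 4 genes. TRIM38 was not raised everywhere: in cone-gated nuclei its ratio was 0.893 with an interval of 0.714 to 1.12. TRIM56 was 4.32-fold higher in astrocyte-gated nuclei (interval 2.41 to 8.04), where it did not pass at week 4. TRIM26 in astrocyte-gated nuclei was at 82.1 and 142 CPM against 20.1 and 13.4 CPM (ratio 5.88, interval 4.38 to 7.98), and in cone-gated nuclei its ratio was 1.53 (interval 1.41 to 1.66). TRIM14 was near its vehicle level in microglia- (ratio 1.28, interval 0.879 to 1.88) and ganglion-gated nuclei (1.39, interval 0.874 to 2.22), and both intervals include 1. Outside the list, TRIM42, a member of unclear function, was 2.23-fold higher in rod- (interval 1.47 to 3.39), 2.11-fold in bipolar- (interval 1.49 to 3.03) and 2.21-fold in Müller-gated nuclei (interval 1.27 to 3.95). TRIM7 in horizontal-gated nuclei was 2.74-fold higher (interval 1.54 to 5.15). TRIM72, a muscle membrane-repair gene, was 2.20-fold higher in cone- (interval 1.28 to 3.91) and 2.11-fold in amacrine-gated nuclei (interval 1.43 to 3.15). These were named after their values were seen, and TRIM42 and TRIM72 passed in no class at week 4. TRIM68 in Müller-gated nuclei was at 9.08 and 9.86 CPM against 8.46 and 7.89 CPM, a ratio of 1.17 with an interval of 0.966 to 1.41.

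The AAV effect at week 4 was compared with that at week 2 over the 6 animals as an interaction of treatment and week. Each arm of week 2 was 1 animal, so a difference between weeks cannot be told apart from a difference between single animals, and the p-values assume that these animals vary as those of week 4 do. Under that assumption 2 of 324 pairs passed, 1 in each direction, where 0.214% of all gene and class pairs passed as higher and 0.372% as lower. TRIM68 in Müller-gated nuclei changed by 0.17 at week 2 and 2.10 at week 4 on the log2 scale, a difference of 1.93 ± 0.35 (adjusted p = 0.0341, edgeR, against 0.968% of all genes of that class called in this direction). TRIM9 in astrocyte-gated nuclei changed by 0.29 and -1.12, a difference of -1.41 ± 0.26 (adjusted p = 0.0277, edgeR, against 0.899%). The rod counts of TRIM50, TRIM63 and TRIM69 entered this fit over both weeks, and none of the 3 passed. None of the interferon-list pairs passed, the nearest being TRIM26 in Müller-gated nuclei at 3.14 and 1.97, with a difference of -1.17 ± 0.27.

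**Figure D3:**
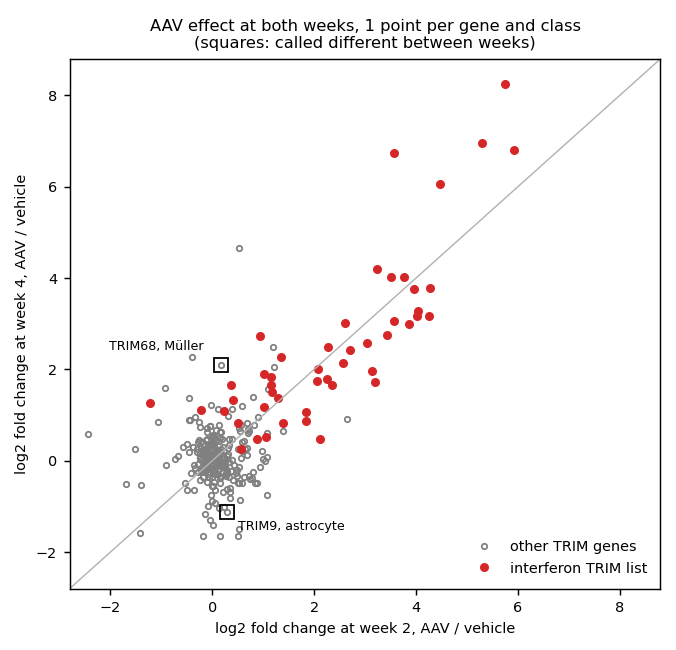
Log2 fold change of AAV over vehicle at week 2 (horizontal) and week 4 (vertical) for 317 pairs of a TRIM gene and a gated class with at least 1 vehicle UMI at both weeks. Red points are the 48 pairs of the interferon list, grey rings the other members, the line marks equal change, and squares mark the 2 pairs that passed the interaction test, in which week 2 has 1 animal per arm, TRIM68 in Müller- and TRIM9 in astrocyte-gated nuclei.

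The size of the week 4 response was also compared between classes in 1 fit with each retina as a block, each class against the mean of the other 8. Of the members, 9 differed between classes in the joint test, a smaller share than the 25.2% of all genes. Of 414 class differences 11 were called, 3 above and 8 below the others. Both shares were under the 1.25% and 2.13% of all such differences. TRIM14 rose 1.98 ± 0.30 more on the log2 scale in Müller-gated nuclei than in the mean of the others (adjusted p = 5.08e-05, edgeR, background 1.66%). The fitted change of TRIM26 was below the others in cone- (-1.27 ± 0.15, background 0.556%) and rod-gated nuclei (-0.65 ± 0.15, background 4.33%) and above them in microglia-gated nuclei (1.94 ± 0.58, background 4.54%), although its own change passed in rods only of these classes. The fitted change of TRIM56 was below the others in astrocyte-gated nuclei (-3.32 ± 0.63, adjusted p = 0.0021, edgeR, background 2.16%), and that of TRIM34 in microglia-gated nuclei (-5.64 ± 1.28, background 1.38%), and neither gene passed in that class on its own. TRIM34 did not pass the joint test over classes (adjusted p = 0.06, edgeR). For these last genes the mean of the others includes classes with 0 to 3 vehicle UMIs, so the size of the difference is not fixed by the data. The response of TRIM9 was below the others in astrocyte- (-1.26 ± 0.21) and Müller- (-0.94 ± 0.23, background 8.14%) and above them in rod-gated nuclei (0.83 ± 0.25, background 1.92%), and that of TRIM2 was below them in Müller- (-0.72 ± 0.15) and astrocyte-gated nuclei (-0.64 ± 0.15).

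In vehicle retinas, the level of each member was compared between classes. Each class was set against the mean of the other 8, with the animal as a block over 3 animals, and 191 of 387 pairs were called, 116 above and 75 below, against 28.3% and 19.4% of all gene and class pairs. Members above the others numbered 16 of 43 in rod- (background 34.1%), 18 in cone- (36.9%), 12 in bipolar- (31.9%), 13 in amacrine- (31.5%), 10 in horizontal- (22.9%), 11 in ganglion- (28.4%), 13 in Müller- (33.7%), 16 in astrocyte- (24.8%) and 7 in microglia-gated nuclei (10.8%). Those below numbered 10 in rod- (20.6%), 8 in cone- (18.7%), 8 in bipolar- (17.1%), 9 in amacrine- (22.1%), 7 in horizontal- (18.6%), 12 in ganglion- (25.2%), 11 in Müller- (20.0%), 6 in astrocyte- (19.0%) and 4 in microglia-gated nuclei (13.7%). These shares were mostly near their background. TRIM36, a neural member with a fibronectin type III domain, was at 35.6 to 40.3 CPM over the 4 vehicle retinas in ganglion-gated nuclei, 5.81 ± 0.15 above the other classes on the log2 scale. TRIM16 was 4.86 ± 0.35 above in the same nuclei, at 4.83 to 8.52 CPM. Bipolar-gated nuclei had TRIM54 at 12.1 to 15.9 CPM (4.83 ± 0.18 above) and TRIM17 at 1.45 to 2.16 CPM (4.27 ± 0.52 above), the latter overlapping TRIM11 in the annotation, so that its reads cannot be fully told apart. Amacrine-gated nuclei had TRIM55, a muscle-type member, at 3.92 to 5.85 CPM (4.35 ± 0.31 above) and TRIM71, an NHL-repeat gene of early development, at 17.4 to 21.3 CPM (3.61 ± 0.19 above). TRIM67 was at 23.5 to 36.3 CPM in horizontal-gated nuclei (3.35 ± 0.18 above) and at 0.361 to 0.868 CPM in Müller-gated nuclei (-3.03 ± 0.62). TRIM9 was at 963 to 1125 CPM in astrocyte-gated nuclei (3.26 ± 0.07 above). For TRIM36 and TRIM9 the 4 retinas lay close together, and for TRIM16 and TRIM67 in Müller-gated nuclei they spread further.

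Of the interferon list, TRIM34, TRIM56, TRIM38 and TRIM14 were above the other classes in microglia-gated nuclei of vehicle retinas. TRIM34 in microglia-gated nuclei was at 9.84 to 40.6 CPM, on 16 UMIs in all (8.05 ± 0.77 above the other classes), and TRIM56 at 0 to 35.5 CPM on 9 UMIs (5.57 ± 0.85 above). TRIM38 and TRIM14 were 4.82 ± 0.39 and 4.69 ± 0.33 above. TRIM56 was also above the others in astrocyte- (4.30 ± 0.45) and Müller-gated nuclei (3.46 ± 0.31), and no TRIM56 UMI was counted in horizontal-gated nuclei. TRIM14 was below the others in rod-gated nuclei (-2.27 ± 0.21), at 0.645 to 1.54 CPM, while TRIM52 was above them there (2.14 ± 0.37). In cone-gated nuclei TRIM17 was above the others (2.50 ± 0.83) and TRIM21 below (-1.95 ± 0.69), and TRIM16 was above them in astrocyte-gated nuclei (3.36 ± 0.67).

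**Figure D4:**
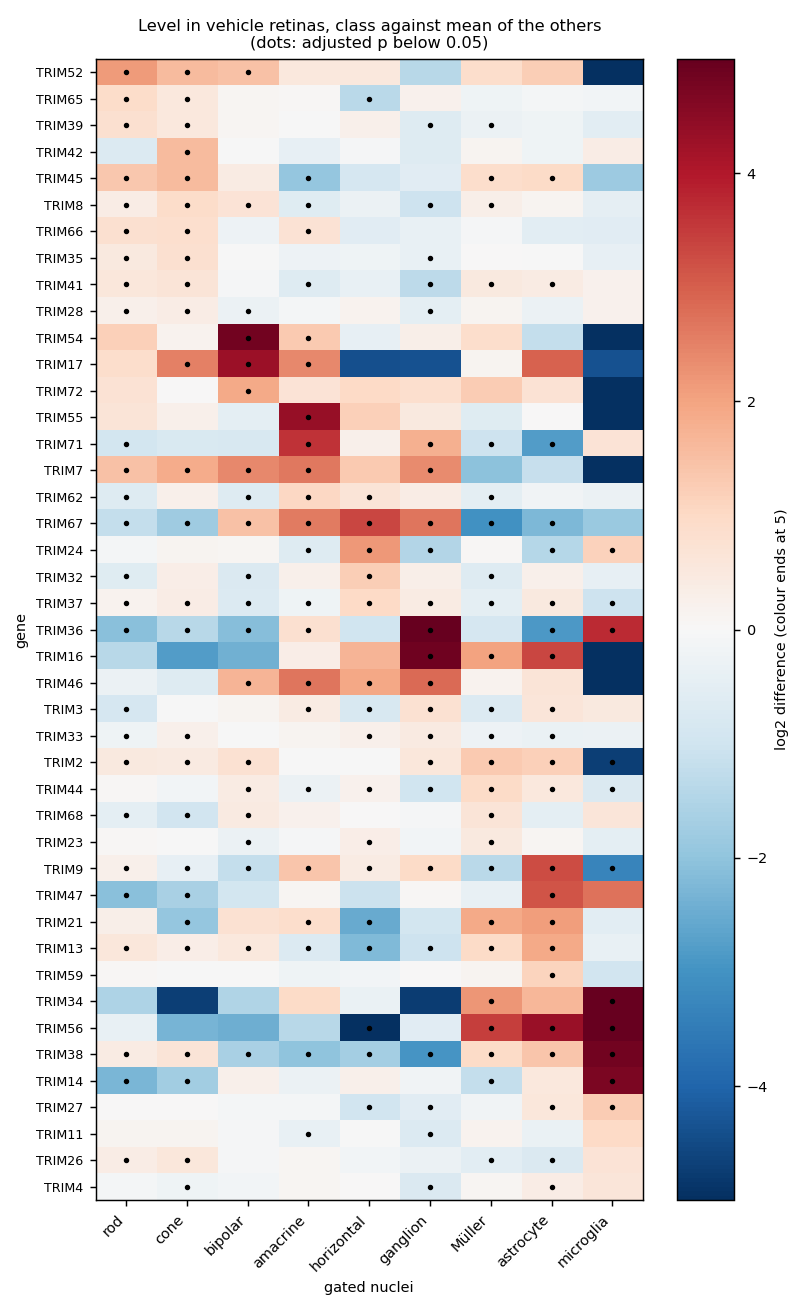
Level of 43 TRIM genes in vehicle retinas, as the log2 difference between a gated class and the mean of the other 8, with colour ending at 5 in either direction. Rows are ordered by the class with the highest value and dots mark the 191 pairs called, for example TRIM36 in ganglion- and TRIM54 in bipolar-gated nuclei. Where a class has no UMI of a gene, as for TRIM56 in horizontal-gated nuclei, the size shown depends on the model.

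Immune nuclei were more numerous in the week 4 AAV retinas, so lymphocyte and microglia markers were measured beside the results. In rod-gated nuclei the summed level of 15 lymphocyte markers was 75.3 and 88.6 CPM in AAV and 25.7 and 28.1 CPM in vehicle retinas at week 4, against 5686 CPM in lymphocyte-gated nuclei. TRIM34 was at 58.7 and 120 CPM and TRIM21 at 36.4 and 35.3 CPM in lymphocyte-gated nuclei of AAV retinas. At week 2 the marker sum in rod-gated nuclei was 29.3 and 24.2 CPM in AAV and 27.2 and 25.5 CPM in vehicle eyes, while TRIM21 was 17.5-fold and TRIM34 43.6-fold higher there (interval 16.5 to 163). The week 4 lymphocyte marker sum was also higher in cone- (71.0 and 91.5 CPM against 28.5 and 40.4 CPM), bipolar- (76.0 and 94.3 CPM against 35.2 and 35.3 CPM) and amacrine-gated nuclei (75.3 and 87.5 CPM against 45.4 and 42.7 CPM). In ganglion-gated nuclei it was 58.1 and 71.7 CPM against 39.5 and 41.9 CPM, and in horizontal-gated nuclei the groups overlapped (276 and 299 CPM against 283 and 238.5 CPM). In Müller-gated nuclei it was 92.1 and 118 CPM against 67.9 and 51.1 CPM. In microglia-gated nuclei it was 250.3 and 363 CPM against 88.6 and 111.5 CPM, and the rod marker sum there was 729 and 760 CPM against 1575 and 1298 CPM. In astrocyte-gated nuclei the lymphocyte marker sums of the groups overlapped (98.3 and 88.0 CPM against 95.0 and 91.4 CPM). The summed level of 12 microglia markers at week 4 was 29.6 and 24.8 CPM in the rod-gated nuclei of AAV and 22.2 and 19.1 CPM in those of vehicle retinas. In cone-gated nuclei it was 21.7 and 15.5 CPM against 10.7 and 9.77 CPM, and in astrocyte-gated nuclei 27.9 and 20.5 CPM against 19.0 and 15.1 CPM. The groups were likewise apart in bipolar- (32.5 and 32.6 CPM against 27.6 and 21.2 CPM), amacrine- (27.4 and 24.3 CPM against 20.6 and 13.4 CPM) and ganglion-gated nuclei (29.4 and 22.1 CPM against 19.4 and 15.2 CPM), and overlapped in Müller- and horizontal-gated nuclei. The summed level of rod markers at week 4 was lower in cone- (5242 and 4803 CPM against 6616 and 7729 CPM) and bipolar-gated nuclei of AAV retinas (1472 and 1309 CPM against 1788 and 1794 CPM), and in amacrine-gated nuclei it was 815 and 683 CPM against 818 and 915.5 CPM. It overlapped between the groups in horizontal- and ganglion-gated nuclei. The part of RNA from other cells in the results was not tested. Among nuclei without an EGFP UMI, 45 pairs were higher and 7 lower at week 4, and 44 of these rises were among the 45 found in all nuclei. In the week 4 AAV retinas, nuclei with EGFP were 4.84% and 4.43% of rod-, 9.90% and 12.2% of bipolar- and 44.1% and 47.4% of ganglion-gated nuclei. Outside ganglion-gated nuclei most UMIs thus stayed in the sums. Whether the rises depend on vector in the same nucleus was not tested.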

How the data were processed

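Nuclei of pig retina were sequenced with a 10x 3′ kit after a DAPI sort. According to the submitters' processing notes and the methods, the authors aligned reads to Sscrofa11.1 with EGFP added and counted UMIs with Cell Ranger 8.0.0. The deposited values are raw UMI counts per gene and nucleus, 4 lanes per retina, with at least 500 UMIs per barcode, and no cell types. Each retina held 121544835 to 173614051 UMIs, and intervals and floors cover counting error only.

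Here, nuclei were filtered by mitochondrial share (mixture of regressions, posterior 0.75), which kept 350538 of 388491, and gated by Poisson rates of fixed markers (posterior 0.99, at least 2 markers). No doublet caller was run. Instead, 27881 kept nuclei (7.95%) that also carried markers of another class were left out as mixed, and 54457 stayed without a class. A vascular class was dropped, and the mixing limit of 0.35 set, after the data had been seen. Counts were summed per retina and class and tested with edgeR 4.0.16 (TMM scaling, low-count filter with minimum 10, quasi-likelihood test, Benjamini-Hochberg over all genes of a class, 0.05), with DESeq2 1.42.0 as an alternative. Standard errors are the fold change over the root of the F statistic. At week 2 ratios of summed counts carry exact binomial intervals (95%). Samples are separate retinas by the labels, and at week 4 separate animals. Scripts were tested on simulated data. Alternatives were another scaling, no low-count filter, DESeq2, a stricter gate, no mitochondrial filter, nuclei with at least 1000 UMIs or without EGFP, all 6 animals, and leaving out each animal.

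Named genes were the interferon list, the 12 members called in most classes in each direction, the most changed member of each class, and those called between weeks or classes, with the 2 largest vehicle differences per class. Members and lists were chosen with earlier results of these data known. A further symbol of this pattern is not reported here. R 4.3.3 and Python 3.11.15 were used.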

Additional observations from a re-analysis of the deposited data

Results flagged for a closer look

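These results were singled out because an effect differed between weeks or between classes in a test of the difference itself (edgeR). No group had the 4 samples needed to test for a sample far from the others.

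Between weeks, TRIM68 in Müller-gated nuclei had a larger AAV effect at week 4 (difference 1.93 on the log2 scale), and TRIM9 in astrocyte-gated nuclei had a lower one (-1.41). Each arm of week 2 was 1 animal, so week and animal cannot be told apart in these values.

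Differences between classes were called in a smaller share of members than of all genes. Between classes, each against the mean of the others, the effect on TRIM9 differed by 0.83 in rod-, -0.94 in Müller- and -1.26 in astrocyte-gated nuclei. The effect on TRIM26 differed by -0.65 in rod-, -1.27 in cone- and 1.94 in microglia-gated nuclei. TRIM2 differed by -0.72 in Müller- and -0.64 in astrocyte-gated nuclei. TRIM14 differed by 1.98 in Müller-, TRIM56 by -3.32 in astrocyte- and TRIM34 by -5.64 in microglia-gated nuclei, and TRIM34 did not pass the joint test over classes. The microglia-gated values rest on vehicle libraries of 101584 and 98642 UMIs.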

How the results depend on the processing

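No paired analysis was possible because the replicate numbers follow accession order and the labels tie no AAV retina to a vehicle retina. Of the 51 pairs called at week 4, 21 stayed called under all 12 alternatives, and no direction reversed. The 45 rises became 29 to 44 when 1 retina was left out, with 29 without the second vehicle animal, and the 6 falls became 2 to 6, with 2 without the second AAV animal and 3 without the second vehicle animal. These totals count every pair called in a fit, including pairs not called with every retina, so they do not give the calls kept. Without the first AAV animal, the 6 falls called were not all the same pairs as the 6 above. In the fit over 6 animals the falls were 0, and the rises 33. Without the low-count filter the pairs called between weeks were 7 in place of 2, and with the stricter gate the class differences were 7 in place of 11. The cause was not tested. At week 2 the counts over 2-fold and, in vehicle retinas, the 191 level differences (143 to 170 without 1 animal) stayed within 1.5 times under every alternative run. The microglia libraries of vehicle retinas were the shallowest tested.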
